A study of Mus musculus with 36 samples.

Results

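The miR-148/152 family of the mouse comprises 3 hairpins, and their 6 mature products are mmu-miR-148a-3p, mmu-miR-148a-5p, mmu-miR-148b-3p, mmu-miR-148b-5p, mmu-miR-152-3p and mmu-miR-152-5p. They were taken by name, without reference to their values, from the 1966 mature miRNA names in the count files, and each of the 6 had a single entry. Small RNA libraries of CD4 T cells were counted in 36 samples of 10 groups, all from spleens of C57BL/6J mice, sorted by flow cytometry for CD4 and TCRb. In a first set of 22 libraries, cells lacking Argonaute 1, 3 and 4 (AGO134 KO) were set against littermate wild type (WT) cells. It had 4 KO and 4 WT libraries of naive cells, 4 and 4 at day 7 and 3 and 3 at day 14 of culture under conditions that polarise towards T helper 2 (Th2). In a second set of 14 libraries, CD4Cre;R26LSLeYFP;AGO2f/f cells (AGO2 KO) were set against CD4Cre;R26LSLeYFP cells (Cre). It had 4 KO and 3 Cre libraries of naive cells and 4 and 3 after Th2 culture. The sample labels give 5 days for that culture, whereas the series text gives 7 days. Both arms of the second set carry the CD4-driven Cre and the R26 eYFP reporter, and deletion of AGO2 is limited to cells in which the CD4 promoter has been active. The labels state neither the animals behind each library nor their age, so that the p-values cover only the variation among these libraries, which may be technical. Argonaute transcripts are not counted in small RNA libraries, and the genotype labels were not checked against the deleted genes.

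Mature miRNAs act as guides: loaded into an Argonaute protein, they pair through the seed near their 5′ end with target mRNAs and lower their output, and a miRNA without an Argonaute partner is short-lived. Mouse cells have Argonautes 1 to 4, of which AGO2 is the efficient slicer. The 3p arms of the miR-148/152 family are the main guides and share a seed. The maintenance DNA methyltransferase Dnmt1 is a well-known target. In mouse T helper 1 cells miR-148a is known to restrain the pro-apoptotic protein Bim (Bcl2l11) after repeated activation. The 5p arms come from the opposite strand of each hairpin and are usually the less abundant product.

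The mature sequences are shown because the family is defined by them; the letters are from RefSeq on build GRCm38.p6, written 5′ to 3′ with the seed (bases 2 to 8) in capitals.
mmu-miR-148a-3p: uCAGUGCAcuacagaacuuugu
mmu-miR-148b-3p: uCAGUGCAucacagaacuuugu
mmu-miR-152-3p: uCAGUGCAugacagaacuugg
mmu-miR-148a-5p: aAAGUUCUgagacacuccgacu
mmu-miR-148b-5p: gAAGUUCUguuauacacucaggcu
mmu-miR-152-5p: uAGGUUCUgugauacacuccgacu

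The 3 guides have the seed CAGUGCA in common, and among the 1679 mature mouse sequences of RefSeq, 0 others carry it. Outside the seed they differ at few positions, counted from 1 at the 5′ end. mmu-miR-148a-3p and mmu-miR-148b-3p differ at 2 of 22 bases (C9U and U10C), mmu-miR-148a-3p and mmu-miR-152-3p at 3 of the 21 bases compared (C9U, U10G and U20G), and mmu-miR-148b-3p and mmu-miR-152-3p at 2 of 21 (C10G and U20G). Reads with an error or an edit at those bases could move between members. How such reads were counted is not stated in the labels. Of the 5p arms, mmu-miR-148a-5p and mmu-miR-148b-5p share the seed AAGUUCU, while mmu-miR-152-5p has AGGUUCU.

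The hairpins lie on 3 chromosomes; they are shown with the mature arms in capitals, the 5p arm first.
Mir148a: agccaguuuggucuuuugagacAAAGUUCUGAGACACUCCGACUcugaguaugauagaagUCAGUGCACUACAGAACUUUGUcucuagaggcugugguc
Mir148b: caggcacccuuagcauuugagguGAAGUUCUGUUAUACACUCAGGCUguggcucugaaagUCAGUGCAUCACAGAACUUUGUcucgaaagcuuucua
Mir152: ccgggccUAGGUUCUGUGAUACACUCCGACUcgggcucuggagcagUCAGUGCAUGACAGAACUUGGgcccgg

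Mir148a is at chr6:51269812-51269910 on the minus strand and overlaps no other annotated gene. Mir148b is at chr15:103285125-103285221 on the plus strand, inside an intron of Copz1. Mir152 is at chr11:96850393-96850465 on the plus strand, inside an intron of Copz2. Copz1 and Copz2 encode alternative forms of the zeta subunit of the COPI vesicle coat, and both host genes run on the same strand as their miRNA.

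A library of the AGO134 set held 64264 to 273724 miRNA counts, and a library of the AGO2 set 596 to 58357. In the AGO134 set every KO library was shallower than every WT library of its stage. Counts were 64264 to 195122 counts in KO and 196357 to 243748 in WT naive cells, 125803 to 190976 in KO and 215215 to 273724 in WT cells at day 7, and 177815 to 238454 in KO and 254369 to 265008 in WT cells at day 14. A count of 0 allows up to 3 counts, which equals 11 to 46.7 miRNA counts scaled to 1000000 per library (CPM) in the AGO134 set and 51.4 to 5030 CPM in the AGO2 set. These floors, like the intervals below, cover counting error only. Levels are CPM after TMM normalisation, which was done within each set, so that levels are not compared between the sets. All 8 T cell marker miRNAs had counts in all 10 groups. Of the defining markers of other cells, the myeloid miR-223-3p did not exceed 42.6 CPM in any library. The 4 red cell and platelet markers summed to at most 560 CPM in naive KO, 804 CPM in naive WT and 306 CPM in Th2 libraries of the AGO134 set, most of it miR-486a-5p (247 to 560 CPM in naive KO and 265 to 528 CPM in naive WT libraries). In naive WT cells miR-144-3p had 77 counts, up to 264 CPM, and miR-451a 3 counts, while miR-451a had 0 in the other 9 groups. In the AGO2 set the red cell list held 0 to 3 counts in a group. By chi-square per degree of freedom several libraries stood apart from the others of their group. Among them were AGO134 KO replicate 4 in naive cells (19.1 to 30.1, against 2.89 to 5.52 between the others) and AGO2 KO replicate E in Th2 cells (36 to 61.7, against 5.17 to 12.2). At day 7 AGO134 KO replicate 4 (9.52 to 12.7, against 4.48 to 4.81) and WT replicate 1 (6.52 to 10.8, against 2.85 to 5.39) did so too. Naive Cre replicate A had 7.64 and 26.6, against 2.88 between B and C. This measure grows with depth, and A held 8643, B 596 and C 2156 miRNA counts. It therefore does not show which naive Cre library stands apart. Entries named STD, whose nature the labels do not give, took 35.7% to 56.9% of all counts in the AGO134 set and 32.0% to 86.7% in the AGO2 set. Scaling to them in place of TMM shifted the median log2 fold change of all miRNAs to -0.77, -0.63 and -0.44 for AGO134 KO over WT in naive, day 7 and day 14 cells, against -0.05, -0.02 and 0.01 under TMM. For AGO2 KO over Cre it was -0.01 in naive and -1.59 in Th2 cells, against 0.14 and 0.06 under TMM. The numbers of miRNAs called higher and lower moved with it. In naive AGO134 KO cells they were 31 higher and 39 lower under TMM, 0 and 204 under STD scaling, 8 and 80 by library size and 36 and 30 with DESeq2 size factors. At day 7 they were 33 and 22 under TMM, 1 and 128 under STD scaling and 4 and 43 by library size. At day 14 they were 34 and 41 under TMM, 2 and 72 under STD scaling, 22 and 54 by library size and 24 and 48 with DESeq2 size factors. In AGO2 KO Th2 cells 19 were higher and 25 lower under TMM, 4 and 65 under STD scaling and 13 and 29 by library size. In naive AGO2 KO cells they were 2 and 7 under TMM, 4 and 5 with DESeq2 size factors and 1 and 13 by library size. A direction given under TMM is therefore one against the bulk of miRNAs in its library. In bulk samples fewer cells of a type and less RNA per cell cannot be told apart.

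With Th2 culture the family rose in both genotypes of the AGO134 set, and by different amounts per member. At day 14 over naive cells the log2 change was 5.60 in KO and 7.62 in WT cells for mmu-miR-152-3p, which is nearly absent in naive cells. It was 1.91 in KO and 2.22 in WT cells for mmu-miR-148a-3p, and 1.10 in KO and 0.80 in WT cells for mmu-miR-148b-3p. All 5 members that passed the filter on low counts were higher at day 7 than in naive cells in KO and in WT cells, where 74.1% and 76.4% of all 382 miRNAs tested were called in either direction. At day 14 against naive cells all 5 were higher again in KO and in WT cells, with 72.5% and 77.7% of all miRNAs called. mmu-miR-152-3p and both 5p arms passed that filter through Th2 libraries alone, since 0 of the 8 naive libraries reached its cutoff of 46.4 CPM (by library size) for any of them. Their calls against naive cells therefore carry no weight, which leaves mmu-miR-148a-3p and mmu-miR-148b-3p, above the cutoff in all 22 libraries. In the whole table calls went both ways, with 152 miRNAs higher and 131 lower in KO and 151 and 141 in WT cells at day 7 over naive (205 and 59 in KO, 200 and 70 in WT under STD scaling). At day 14 over naive they were 150 and 127 in KO and 155 and 142 in WT cells (208 and 70 in KO, 172 and 91 in WT under STD scaling). STD scaling moved the median of all miRNAs to 0.80 in KO and 0.73 in WT cells at day 7, and to 0.89 in KO and 0.58 in WT cells at day 14. The median log2 change of all miRNAs at day 14 over naive cells was 0.16 in KO and 0.15 in WT cells under TMM. These calls were made with edgeR's quasi-likelihood test and Benjamini-Hochberg adjustment over all miRNAs tested, at an adjusted p of 0.05.

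The sums of marker lists also moved with the stage. The 7 stromal and endothelial markers summed to 135 to 579, 679 to 1001 and 546 to 771 CPM in naive, day 7 and day 14 KO libraries, and to 142 to 378, 882 to 1054 and 529 to 685 CPM in WT libraries. The 8 epithelial and liver markers summed to 4837 to 7477, 8845 to 9663 and 3665 to 4318 CPM in KO and to 5345 to 6212, 7880 to 8217 and 3584 to 4361 CPM in WT libraries. The first sum was higher at day 7 than in naive libraries without overlap, and in KO libraries day 14 overlapped both other stages. The second was highest at day 7 and lowest at day 14, without overlap between stages. Single members did not all follow their sum. In WT libraries miR-192-5p had 1738 to 2402 CPM in naive cells and 6058 to 6307 CPM at day 7. miR-200b-3p went the other way, from 1182 to 1399 CPM to 158 to 267 CPM, as did miR-200a-3p and miR-200c-3p. In the first list miR-126a-3p had 63.3 to 155 CPM in naive and 317 to 398 CPM in day 14 WT libraries. miR-143-3p had 44.7 to 132 CPM in naive and 3.46 to 21.2 CPM in day 14 WT libraries. The 8 T cell markers summed to 179265 to 276893, 123175 to 138261 and 91753 to 117999 CPM in KO and to 127448 to 156497, 92718 to 98523 and 86419 to 95302 CPM in WT libraries. The part of these lists in the rise over naive cells was not tested.

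mmu-miR-148a-3p had 1705, 2164, 2145 and 1485 CPM in naive, 6857, 6874, 8789 and 8437 CPM in day 7, and 7122, 6371 and 8035 CPM in day 14 AGO134 KO libraries. In WT libraries it had 2179, 2914, 1809 and 2240 CPM in naive cells, 5682, 5223, 5566 and 5830 CPM at day 7 and 10616, 10498 and 10798 CPM at day 14. The stages of WT cells did not overlap, and in KO cells day 7 and day 14 did. The log2 change of mmu-miR-148a-3p at day 7 over naive was 2.02 (SE 0.14, edgeR adjusted p = 2.83e-13) in KO and 1.29 (SE 0.14, edgeR adjusted p = 1.18e-09) in WT cells. At day 14 over day 7 the log2 change was -0.11 (SE 0.14, edgeR adjusted p = 0.589) in KO cells and 0.93 (SE 0.14, edgeR adjusted p = 2.84e-06) in WT cells. By group mean the order, highest first, was day 14 WT, day 7 KO, day 14 KO, day 7 WT, naive WT and naive KO. The neighbours whose libraries overlapped in that order were day 7 and day 14 KO, and naive WT and naive KO.

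mmu-miR-148b-3p, which has the same seed and is the more abundant guide of naive cells, had 3046, 2760, 3323 and 1912 CPM in naive, 5083, 5534, 6238 and 5802 CPM in day 7, and 5363, 6423 and 6233 CPM in day 14 AGO134 KO libraries. WT libraries had 4228, 4132, 3161 and 3916 CPM in naive cells, 5978, 5121, 5146 and 5648 CPM at day 7 and 6216, 6617 and 7324 CPM at day 14. Naive libraries were below those of Th2 cells in either genotype. The log2 change of mmu-miR-148b-3p at day 7 over naive was 1.01 (SE 0.13, edgeR adjusted p = 1.17e-07) in KO and 0.50 (SE 0.13, edgeR adjusted p = 0.000946) in WT cells. At day 14 over day 7 it was 0.08 (SE 0.14, edgeR adjusted p = 0.682) in KO cells and 0.30 (SE 0.14, edgeR adjusted p = 0.0754) in WT cells. The WT value passed under 4 other settings and without day 14 WT replicate 1, and the edgeR or DESeq2 adjusted p over its 15 alternatives ran from 0.00245 to 0.77. In the order of group means, day 14 WT, day 14 KO, day 7 KO, day 7 WT, naive WT and naive KO, each neighbour overlapped the next except day 7 WT and naive WT.

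mmu-miR-152-3p, the third guide, was at the edge of detection in naive cells, with 0, 0, 1 and 1 counts in KO and 0, 1, 2 and 1 counts in WT libraries. It had 27.2, 59.4, 87.6 and 142 CPM in day 7 and 180, 189 and 289 CPM in day 14 AGO134 KO libraries. In WT libraries it had 16.7, 70.1, 78.1 and 55.6 CPM at day 7 and 966, 865 and 1030 CPM at day 14. The genotypes overlapped at day 7 and lay far apart at day 14. At day 14 over day 7 the log2 change of mmu-miR-152-3p was 1.59 (SE 0.35, edgeR adjusted p = 0.000468) in KO cells and 4.05 (SE 0.28, edgeR adjusted p = 8.39e-13) in WT cells. Day 14 against day 7 called 2 of the 5 members, both higher, in KO cells, where 44.8% of all miRNAs were called. In WT cells it called 3 of the 5, all higher, beside 50% of all miRNAs (96 higher and 95 lower, against 52 and 89 under STD scaling and 75 and 113 by library size). Against the 2 counts of naive KO cells, the ratio of counts per depth was 18.1 (exact 95% binomial interval 4.73 to 153) at day 7 and 56.5 (15.3 to 471) at day 14. The fitted log2 change at day 14 over naive was 7.62 (SE 0.43) in WT cells, where naive libraries held 4 counts in all. Because mmu-miR-152-3p passed the filter through Th2 libraries alone, no p is given for it against naive cells. By group mean the order was day 14 WT, day 14 KO, day 7 KO, day 7 WT, naive KO and naive WT, and from day 7 KO downwards each neighbour overlapped the next.

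**Figure D1:**
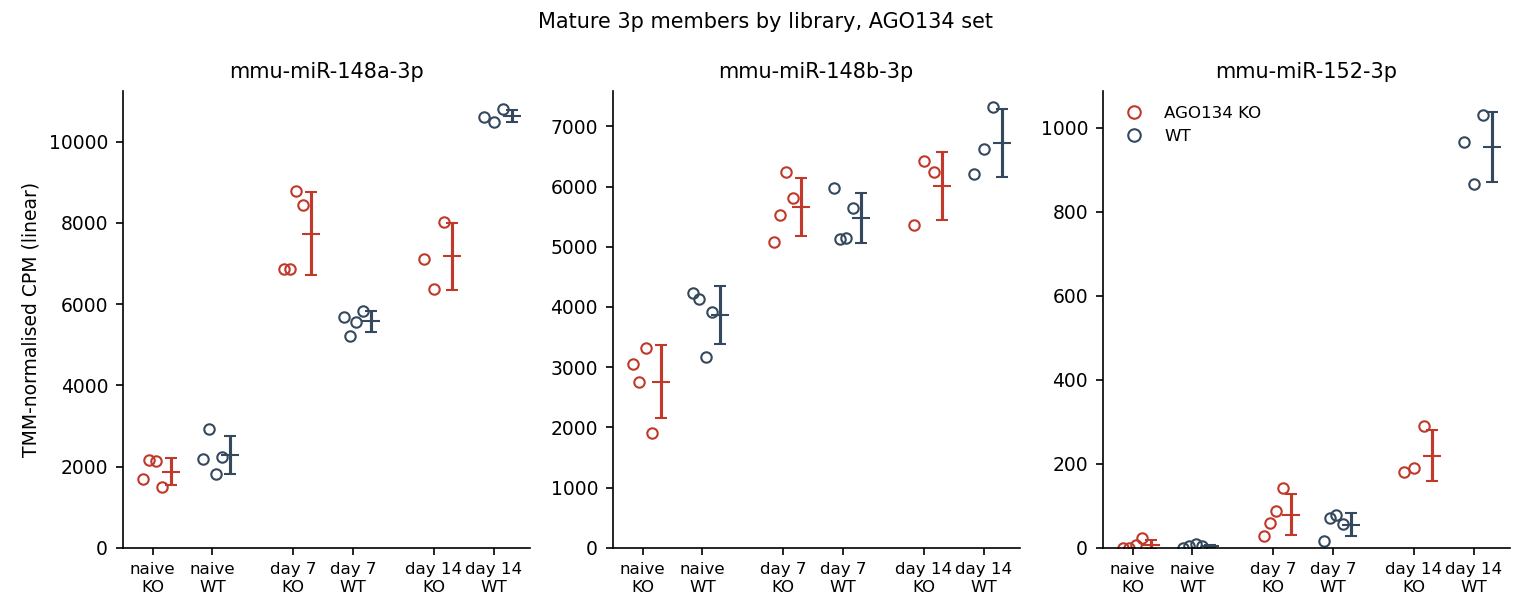
CPM after TMM normalisation (linear axis, own scale per panel) of the 3 guides in each library of the AGO134 set, by stage, KO left of WT; circles are libraries, bars the mean and SD. mmu-miR-148a-3p of KO cells lay above WT at day 7 (6857 to 8789 against 5223 to 5830 CPM, an order that turns under STD scaling) and below WT at day 14 (6371 to 8035 against 10498 to 10798 CPM), and mmu-miR-152-3p of KO cells was far below WT at day 14.

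The 5p arms, the lesser strands, were far below their 3p partners. The means of mmu-miR-148a-5p and mmu-miR-148b-5p were higher in Th2 than in naive cells of the AGO134 set. Both passed the filter through Th2 libraries alone, so that this order is only a description. mmu-miR-148a-5p averaged 11.1 ± 8.97, 73.4 ± 22.5 and 124 ± 22.3 CPM in naive, day 7 and day 14 AGO134 KO cells and 24.8 ± 10.1, 81.9 ± 18.9 and 207 ± 27.3 CPM in WT cells (SD, n = 4, 4 and 3 per genotype). At day 14 over day 7 it rose in KO cells by 0.75 on the log2 scale (SE 0.29, edgeR adjusted p = 0.0341) and in WT cells by 1.34 (SE 0.23, edgeR adjusted p = 1.49e-05). The KO call ended without day 7 KO replicate 3 or 4 or day 14 KO replicate 3 or 4 (log2 change 0.61 to 0.77 without these) and under 3 other settings. mmu-miR-148b-5p averaged 24.4 ± 10.5, 58.7 ± 11.5 and 82.7 ± 26.8 CPM in KO cells and 20.3 ± 11.0, 83.6 ± 19.2 and 61.3 ± 14.2 CPM in WT cells at these stages. The log2 change of mmu-miR-148b-5p at day 7 over naive was 1.19 (SE 0.43) in KO and 2.03 (SE 0.33) in WT cells. No p is given for it, since it passed the filter through Th2 libraries alone. The KO value was 0.96 without naive KO replicate 1 and 1.04 without replicate 2. mmu-miR-152-5p did not pass the filter. It had 5 counts in day 7 and 2 in day 14 KO cells, 30 counts in day 14 WT cells, and 0 at the other stages of the set. Those 30 counts were at least 14.5-fold more per depth than in day 7 WT cells, taking 3 counts over the whole group as the floor.

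**Figure D2:**
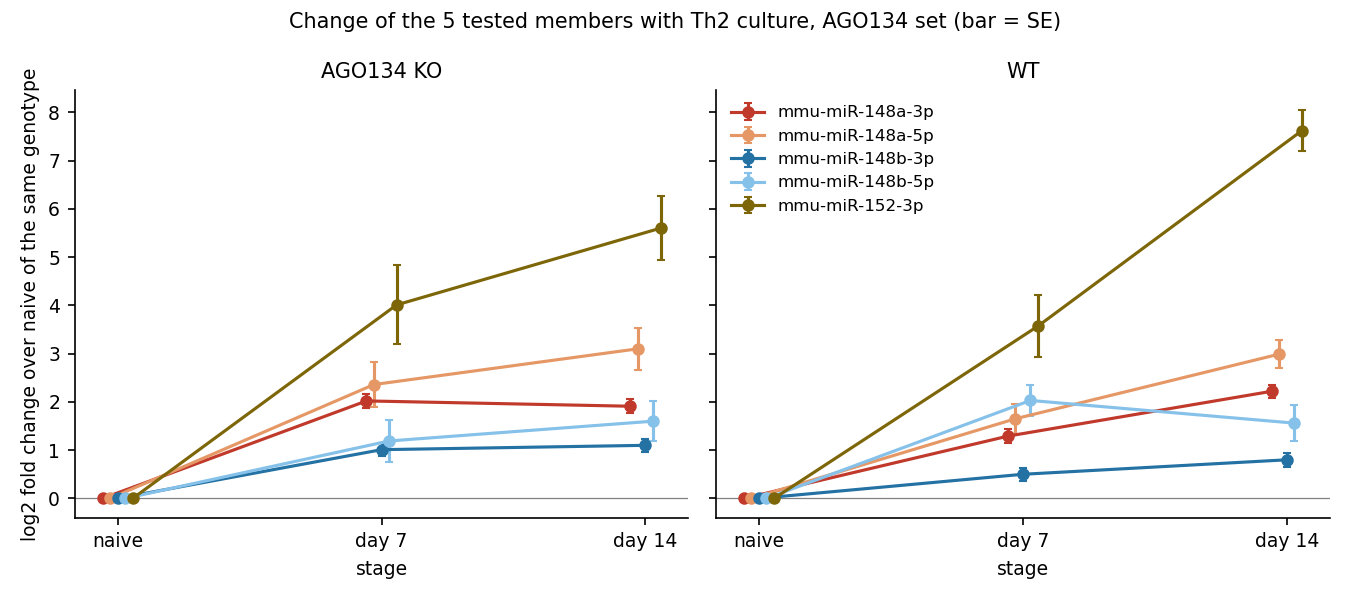
Log2 fold change over naive cells of the same genotype for the 5 tested members at day 7 and day 14 in AGO134 KO (left) and WT cells (right); bars are SE. mmu-miR-152-3p had the highest value in both panels, on 2 counts in naive KO and 4 counts in naive WT cells. mmu-miR-152-3p and both 5p arms shown passed the filter through Th2 libraries alone, so that their changes are only a description. mmu-miR-148a-3p stood at 2.02 at day 7 and 1.91 at day 14 in KO cells, and at 1.29 and 2.22 in WT cells.

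In naive cells mmu-miR-148b-3p was lower in KO cells, at day 7 mmu-miR-148a-3p was higher in KO cells under TMM (with a value below 0 that did not pass under STD scaling), and at day 14 mmu-miR-152-3p and both arms of miR-148a were lower in KO cells. The calls were 1 of 5 tested members in naive cells (18.3% of all 382 miRNAs called), 1 of 5 at day 7 (14.4%) and 3 of 5 at day 14 (19.6%). The median log2 fold change of the 5 members, KO over WT, was -0.26, 0.05 and -0.57 at the 3 stages, against -0.05, -0.02 and 0.01 for all miRNAs.

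In naive cells mmu-miR-148b-3p averaged 2760 ± 610 CPM in KO and 3859 ± 483 CPM in WT libraries (SD, n = 4 each), a log2 fold change of -0.46 (SE 0.13, edgeR adjusted p = 0.0169), with 1 KO library above the lowest WT library. Without KO replicate 4, which stands apart and is the shallowest library of the set, the log2 fold change was -0.31 and the edgeR adjusted p 0.0961; over all 16 alternatives that p ran from 0.000229 to 0.0961. mmu-miR-148a-3p averaged 1875 ± 335 CPM in KO and 2286 ± 460 CPM in WT libraries, a log2 fold change of -0.26 (SE 0.14, edgeR adjusted p = 0.22), which passed under library-size scaling (-0.55) and STD scaling (-1.01), with edgeR adjusted p from 0.00128 to 0.594 over its 16 alternatives. mmu-miR-148a-5p (log2 fold change -0.85, SE 0.55, edgeR adjusted p = 0.329) and mmu-miR-148b-5p (0.34, SE 0.50, edgeR adjusted p = 0.658; -0.34 under STD scaling) did not pass. The 2 counts of mmu-miR-152-3p in KO against 4 in WT cells give a ratio per depth of 0.937 (exact 95% binomial interval 0.0848 to 6.54). The 8 T cell markers summed to 179265 to 276893 CPM in KO and 127448 to 156497 CPM in WT libraries, without overlap, and the part of this and of depth in the difference was not tested.

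At day 7 mmu-miR-148a-3p averaged 7740 ± 1019 CPM in KO and 5576 ± 259 CPM in WT libraries (SD, n = 4 each), and every KO library lay above every WT library. The log2 fold change was 0.47 (SE 0.13, edgeR adjusted p = 0.017), or 1.39-fold, under TMM, and -0.15 (edgeR adjusted p = 0.568) under STD scaling. The call also ended under library-size scaling (0.17), with no filter on low counts (0.38), and without WT replicate 2 (0.44) or 3 (0.46) or KO replicate 1 (0.42), 3 (0.39) or 4 (0.43). The edgeR or DESeq2 adjusted p over its 16 alternatives ran from 0.00544 to 0.568. mmu-miR-148b-3p averaged 5664 ± 484 CPM in KO and 5473 ± 415 CPM in WT libraries (log2 fold change 0.05, SE 0.13, edgeR adjusted p = 0.894; -0.56 under STD scaling). Of the low members, mmu-miR-152-3p had a log2 fold change of 0.36 (SE 0.38, edgeR adjusted p = 0.628; -0.25 under STD scaling). That of mmu-miR-148a-5p was -0.14 (SE 0.27, edgeR adjusted p = 0.815) and that of mmu-miR-148b-5p -0.49 (SE 0.29, edgeR adjusted p = 0.33). mmu-miR-152-5p had 5 counts in KO and 0 in WT cells. Some marker lists moved with the genotype at this stage. The 8 epithelial and liver miRNAs, all with counts in both groups, summed to 8845 to 9663 CPM in KO and 7880 to 8217 CPM in WT libraries. The 8 T cell markers summed to 123175 to 138261 CPM in KO and 92718 to 98523 CPM in WT libraries. Of these, miR-181a-5p went the other way, with 5376 to 6582 CPM in KO and 6582 to 7818 CPM in WT libraries. The 7 stromal and endothelial markers overlapped in sum, with 679 to 1001 CPM in KO and 882 to 1054 CPM in WT libraries. As a share of miRNA counts the epithelial and liver list took 0.793% to 0.936% in KO and 0.917% to 0.987% in WT libraries, and the T cell list 12.1% to 12.8% in KO and 10.8% to 12.0% in WT libraries. The liver miRNA miR-122-5p itself overlapped, with 482 to 789 CPM in KO and 494 to 899 CPM in WT libraries. The part of these markers and of depth in the day 7 difference was not tested.

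At day 14 mmu-miR-152-3p was lower in KO cells, at 219 ± 61.0 CPM in KO libraries, against 954 ± 82.8 CPM in WT libraries (SD, n = 3 each), with no overlap. The log2 fold change was -2.10 (SE 0.27, edgeR adjusted p = 1.07e-06), 4.28-fold lower in KO cells, and over its 14 alternatives it ran from -2.53 to -1.95, with an edgeR adjusted p of at most 3.61e-05. mmu-miR-152-5p went with its partner, with 1, 0 and 1 counts in KO and 13, 8 and 9 counts in WT libraries. Per depth WT cells had 11 times the KO count (exact 95% binomial interval 2.78 to 94.6). mmu-miR-148a-3p averaged 7176 ± 833 CPM in KO and 10637 ± 151 CPM in WT libraries, again with no overlap. Its log2 fold change was -0.57 (SE 0.15, edgeR adjusted p = 0.00783), 1.48-fold lower in KO cells, and without KO replicate 3 it was -0.47 (edgeR adjusted p = 0.0741; edgeR or DESeq2 over all 14 alternatives 0.000527 to 0.0741). mmu-miR-148a-5p had 99.3, 130 and 143 CPM in KO and 190, 238 and 191 CPM in WT libraries, a log2 fold change of -0.73 (SE 0.25, edgeR adjusted p = 0.0339). That call ended in DESeq2, with no filter, with the replicate block (-0.70, edgeR adjusted p = 0.0819), and without WT replicate 1 (-0.78) or 2 (-0.61) or KO replicate 2 (-0.58) or 3 (-0.73), with edgeR or DESeq2 adjusted p from 0.00997 to 0.158 over its 14 alternatives. mmu-miR-148b-3p (log2 fold change -0.16, SE 0.15, edgeR adjusted p = 0.463) and mmu-miR-148b-5p (0.38, SE 0.32, edgeR adjusted p = 0.425; -0.07 under STD scaling) did not pass. Marker miRNAs of stromal and endothelial cells, 5 of 7 with counts in KO and 6 of 7 in WT cells, summed to 546 to 771 CPM in KO and 529 to 685 CPM in WT libraries. The epithelial and liver markers summed to 3665 to 4318 CPM in KO and 3584 to 4361 CPM in WT libraries. The genotypes overlapped in both lists. The 8 T cell markers overlapped in sum (91753 to 117999 CPM in KO, 86419 to 95302 CPM in WT). Of these, miR-150-5p was higher in KO without overlap (11916 to 18885 against 8120 to 11851 CPM). So were miR-181a-5p (3322 to 4048 against 1843 to 2644) and let-7g-5p (21247 to 27519 against 16091 to 17718). miR-142a-3p was lower in KO (1272 to 2024 against 2059 to 3234), and the others overlapped. The part of these lists and of the shallower KO libraries was not tested.

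**Figure D3:**
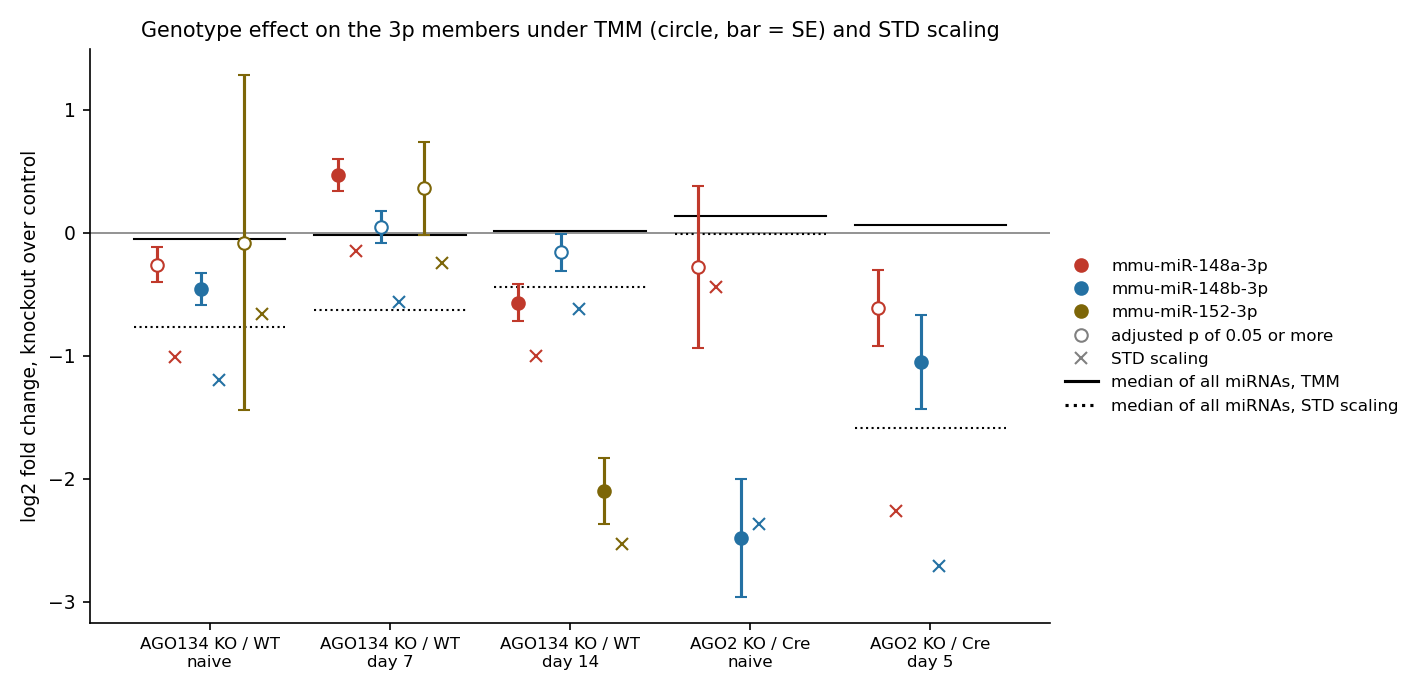
Log2 fold change, knockout over control, of the guides tested in each genotype comparison (mmu-miR-152-3p in the AGO134 set alone) under TMM (circles with SE, filled where the adjusted p was under 0.05) and under STD scaling (crosses), with the median of all miRNAs as lines. The circle of mmu-miR-148a-3p was above 0 in AGO134 KO cells at day 7 (0.47) where its cross was below 0 (-0.15), while at day 14 mmu-miR-152-3p was far below 0 and below the median of all miRNAs under both scalings.

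The effect of the genotype on a member was itself compared between stages. For mmu-miR-148a-3p the KO effect at day 14 minus that at day 7 was -1.04 on the log2 scale (SE 0.20, edgeR adjusted p = 0.000735), and for mmu-miR-152-3p it was -2.45 (SE 0.48, edgeR adjusted p = 0.000735). These were 2 of the 5 tested members, where 12.0% of all miRNAs were called (21 higher and 25 lower, against 26 and 14 by library size). The value of mmu-miR-152-3p passed in all 22 alternatives and that of mmu-miR-148a-3p in 21, the exception being STD scaling (-0.85, edgeR adjusted p = 0.214). The same differences for mmu-miR-148a-5p (-0.59, SE 0.37), mmu-miR-148b-3p (-0.21, SE 0.20) and mmu-miR-148b-5p (0.87, SE 0.44) had edgeR adjusted p of 0.35, 0.578 and 0.208. Between day 7 and naive cells 1 of 5 members differed in its KO effect, mmu-miR-148a-3p by 0.73 (SE 0.19, edgeR adjusted p = 0.0324), where 2.36% of all miRNAs were called (7 higher and 2 lower, against 8 and 4 with DESeq2 size factors, 2 and 1 by library size and 1 and 0 under STD scaling). That call was kept in 8 of 24 alternatives, with edgeR or DESeq2 adjusted p from 0.0141 to 0.397. When single libraries were left out it held in 4 of 16 fits, those without naive WT replicate 3, naive KO replicate 2 or 3, or day 7 KO replicate 2. Between day 14 and naive cells 0 of 5 members were called, with 6.81% of all miRNAs called (17 higher and 9 lower, against 13 and 15 with DESeq2 size factors and 21 and 6 by library size). The difference was -0.30 (SE 0.21) for mmu-miR-148a-3p, 0.30 (SE 0.20) for mmu-miR-148b-3p and -2.02 (SE 1.75) for mmu-miR-152-3p. For mmu-miR-152-3p and both 5p arms no naive library reached the filter's cutoff, so that this comparison cannot decide whether their effects differ. By edgeR 0 of the 5 had an unadjusted p under 0.05, and DESeq2 called 0 of the 4 it gave an adjusted p for.

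Because a share within the family does not depend on scaling, the makeup of the 3p counts was also described. mmu-miR-148a-3p made up 40.6% ± 3.80 of the family's 3p counts in naive AGO134 KO and 37.0% ± 3.08 in naive WT libraries (SD, n = 4 each), with overlap. At day 7 its share was 57.3% ± 1.56 in KO and 50.2% ± 1.21 in WT libraries, ranging from 55.1% to 58.7% in KO and from 48.7% to 51.6% in WT. At day 14 the order was the other way, with 53.5% ± 3.87 in KO and 58.1% ± 1.65 in WT libraries (49.1% to 56.2% in KO and 56.4% to 59.6% in WT, n = 3 each). At both Th2 stages the shares of the genotypes did not overlap, and day 14 was separated by 56.2% in KO replicate 2 and 56.4% in WT replicate 3. mmu-miR-152-3p took 1.62% ± 0.320 of the 3p counts in KO and 5.20% ± 0.340 in WT libraries at day 14, and 0.568% ± 0.316 in KO and 0.505% ± 0.263 in WT libraries at day 7. In counts per counts, mmu-miR-148a-3p over mmu-miR-148b-3p was 1.35, 1.24, 1.41 and 1.45 in KO and 0.951, 1.02, 1.08 and 1.03 in WT libraries at day 7. At day 14 it was 1.33, 0.992 and 1.29 in KO and 1.71, 1.59 and 1.47 in WT libraries. The lead of mmu-miR-148b-3p in naive cells was thus gone by day 14 in both genotypes, except in KO replicate 3, where the 2 guides were level. The summed level of the 3 guides was 4642 ± 871, 13483 ± 1505 and 13401 ± 1014 CPM in naive, day 7 and day 14 KO cells and 6149 ± 866, 11104 ± 602 and 18310 ± 735 CPM in WT cells.

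**Figure D4:**
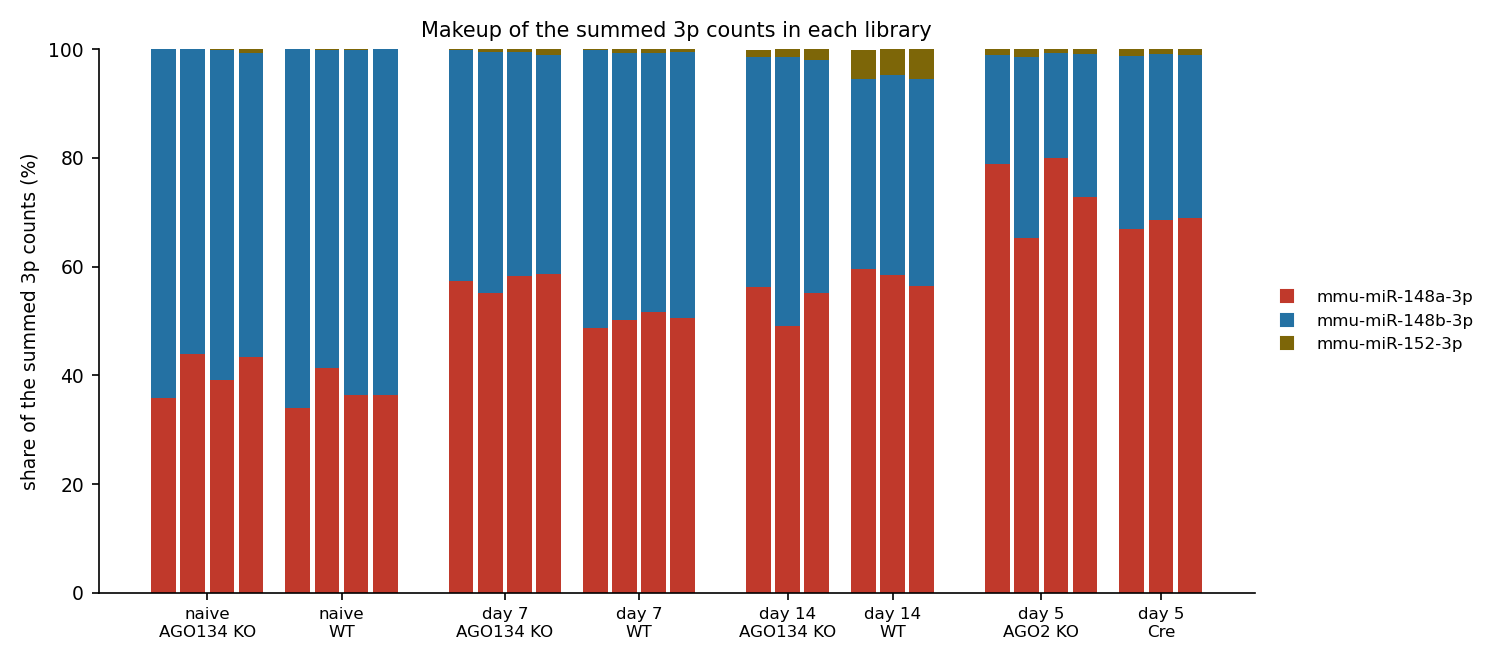
Share of each guide in the summed 3p counts (percent, bars from 0) in each library of the AGO134 set and each Th2 library of the AGO2 set, groups by stage with the knockout left of its control. The share of mmu-miR-148a-3p was above that of naive cells in Th2 libraries of the AGO134 set, was higher in AGO134 KO than in WT libraries at day 7 and lower at day 14, where mmu-miR-152-3p took 1.42% to 1.99% in KO and 4.81% to 5.43% in WT libraries.

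The 2 arms of a hairpin were compared within libraries, again free of scaling. The 5p arm made up 0.702% (exact 95% binomial interval 0.283 to 1.44), 0.954% (0.706 to 1.26) and 1.68% (1.32 to 2.09) of the miR-148a arms in naive, day 7 and day 14 AGO134 KO cells, and 1.12% (0.717 to 1.66), 1.43% (1.16 to 1.74) and 1.90% (1.63 to 2.20) in WT cells. For miR-148b it was 0.872% (0.465 to 1.49), 1.06% (0.755 to 1.43) and 1.30% (0.958 to 1.72) in KO and 0.524% (0.316 to 0.817), 1.54% (1.26 to 1.86) and 0.900% (0.671 to 1.18) in WT cells. The log2 ratio of 5p to 3p counts was tested between genotypes for these 6 cases with a two-sided exact permutation test, and 0 of 6 passed. The lowest p of 0.114 (adjusted 0.286) was found for miR-148b in naive and at day 7, with 4 against 4 libraries allowing 0.0286 and 3 against 3 allowing no less than 0.1. The miR-152 arms were too few for that test at every stage, at day 14 because of the KO libraries. At day 14 the 5p arm of miR-152 made up 1.43% (0.173 to 5.07) in KO and 3.62% (2.45 to 5.13) in WT cells.

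In the AGO2 set only mmu-miR-148a-3p and mmu-miR-148b-3p passed the filter, and of these mmu-miR-148b-3p was called lower in AGO2 KO cells. The fitted value of mmu-miR-148a-3p was also below 0, and the 2 guides were not tested against each other. In Th2 cells at day 5 mmu-miR-148b-3p had 2023, 2892, 1611 and 3483 CPM in AGO2 KO and 4056, 5436 and 6010 CPM in Cre libraries, with no overlap. The log2 fold change was -1.05 (SE 0.38, edgeR adjusted p = 0.029), 2.08-fold lower in AGO2 KO cells. Without KO replicate D it was -0.86 (edgeR adjusted p = 0.112) and without KO replicate F -0.78 (edgeR adjusted p = 0.147, the highest of its 15 alternatives, whose lowest was 2.07e-06). mmu-miR-148a-3p had 7983, 5653, 6601 and 9648 CPM in AGO2 KO and 8536, 12219 and 13835 CPM in Cre libraries, with 1 KO library above the lowest Cre library. Its log2 fold change of -0.61 (SE 0.31, edgeR adjusted p = 0.11) passed in 4 of 15 alternatives, DESeq2 (-0.77, DESeq2 adjusted p = 0.0247) among them. Without Cre replicate A it was -1.06 (edgeR adjusted p = 0.0256; over all alternatives 0.000109 to 0.321). Without KO replicate E, which stands apart from the other KO libraries, mmu-miR-148b-3p was -1.10 (edgeR adjusted p = 0.0217) and mmu-miR-148a-3p -0.50 (edgeR adjusted p = 0.17). Thus 1 of 2 tested members was called, where 44.9% of the 98 miRNAs tested were called.

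Depth, STD share and T cell markers differed between these Th2 libraries too. KO libraries held 11218 to 40720 and Cre libraries 39794 to 58357 miRNA counts, and STD entries took 52.8% to 64.8% of all counts in KO and 32.0% to 38.5% in Cre libraries. The 8 T cell markers overlapped in sum, with 74925 to 102935 CPM in KO and 60909 to 87820 CPM in Cre libraries. Among them miR-150-5p, abundant in resting lymphocytes, had 4804 to 9277 CPM in KO and 586 to 693 CPM in Cre libraries, without overlap. miR-142a-5p (3432 to 7230 CPM in KO and 2144 to 3094 CPM in Cre) and miR-181a-5p (759 to 3092 CPM in KO and 537 to 735 CPM in Cre) did not overlap either. The epithelial and liver markers summed to 361 to 920 CPM in KO and 258 to 435 CPM in Cre, and the stromal and endothelial ones to 0 to 208 CPM in KO and 42.4 to 128 CPM in Cre libraries. Both myeloid markers were at 0 in either genotype. The part of these in the difference was not tested.

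**Figure D5:**
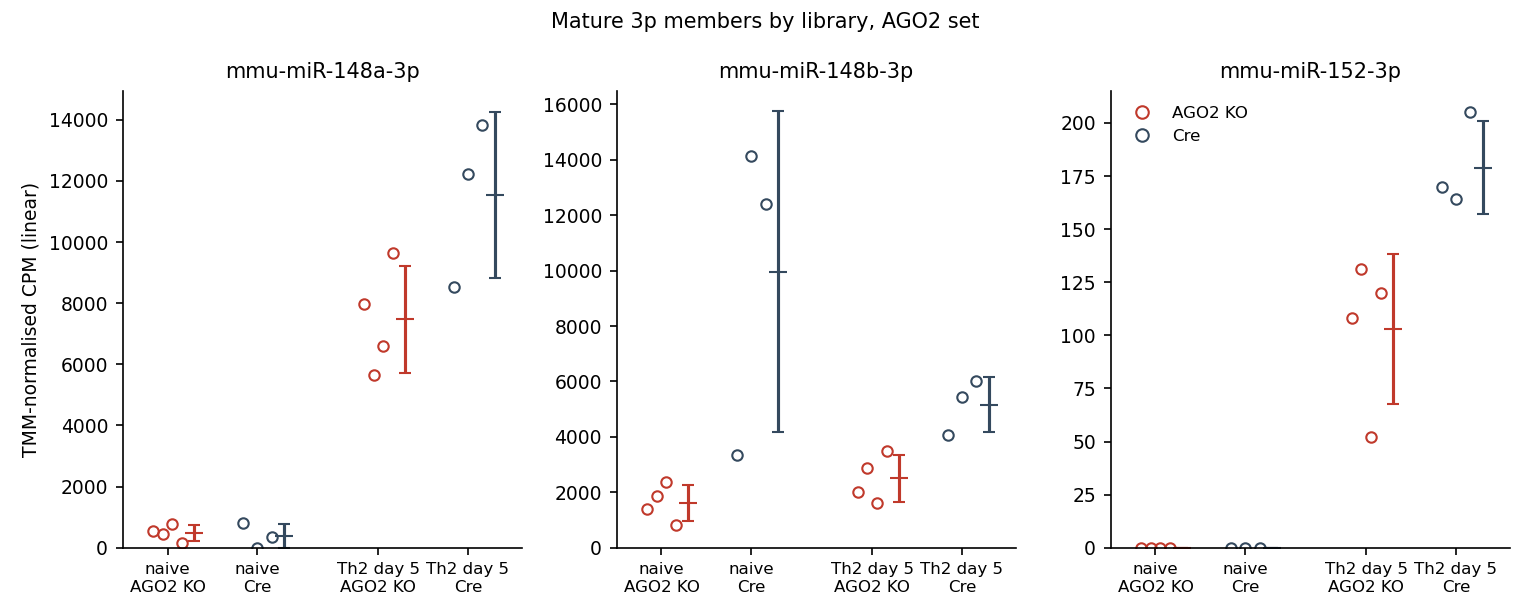
CPM after TMM normalisation (linear axis, own scale per panel) of the 3 guides in each library of the AGO2 set, AGO2 KO left of Cre; circles are libraries, bars the mean and SD. In Th2 cells mmu-miR-148b-3p lay between 1611 and 3483 CPM in AGO2 KO and between 4056 and 6010 CPM in Cre libraries; the naive Cre values of 14138 and 12394 CPM rest on 14 and 34 counts.

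Counts of the other members in this set were low. mmu-miR-152-3p had 3, 1, 2 and 6 counts in AGO2 KO and 12, 14 and 8 counts in Cre libraries of Th2 cells, or 52.0 to 131 CPM in KO and 164 to 205 CPM in Cre. The ratio of summed counts per depth, Cre over KO, was 1.80 (exact 95% binomial interval 0.907 to 3.81). mmu-miR-148a-5p had 7 counts in AGO2 KO and 21 in Cre Th2 cells, and mmu-miR-148b-5p 1 in AGO2 KO and 2 in Cre Th2 cells. mmu-miR-152-5p had 0 counts in all 14 libraries. In naive cells of this set the 5p arms and mmu-miR-152-3p had 0 counts in both genotypes, which at this depth does not separate low from absent.

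Naive cells of the AGO2 set were very shallow, and their values rest on few counts. mmu-miR-148b-3p had 1408, 1860, 2376 and 824 CPM in AGO2 KO libraries, on 21, 16, 12 and 5 counts, and 3357, 14138 and 12394 CPM in Cre libraries, on 25, 14 and 34 counts. The log2 fold change was -2.48 (SE 0.48, edgeR adjusted p = 0.00116), 1 of 2 tested members where 9.18% of all miRNAs were called. Without the 2 shallow Cre libraries B and C together it was -0.58 (edgeR adjusted p = 0.678, edgeR or DESeq2 over its 15 alternatives 6.9e-05 to 0.678), a fit in which the remaining Cre library is assumed to vary like the other groups. mmu-miR-148a-3p had 17 counts in AGO2 KO and 7 in Cre cells. Its fitted log2 fold change of -0.28 (SE 0.66, edgeR adjusted p = 0.868) is opposite in sign to the means of 490 ± 258 CPM in KO and 390 ± 403 CPM in Cre libraries (SD, n = 4 and 3), and it turned positive without Cre replicate A (1.14).

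With Th2 culture mmu-miR-148a-3p rose in both genotypes of the AGO2 set, by 3.93 on the log2 scale (SE 0.40) in AGO2 KO and by 4.27 (SE 0.53) in Cre cells. It passed the filter through Th2 libraries alone, with 0 of 7 naive libraries at the cutoff of 723 CPM by library size. Its call against naive cells therefore carries no weight, and no p is given. It was 1 of 2 tested members called in each, where 51.0% of all miRNAs were called in AGO2 KO (37 higher and 13 lower, against 60 and 2 under STD scaling, 47 and 7 by library size and 22 and 23 with DESeq2 size factors) and 56.1% in Cre cells (36 and 19, against 82 and 2 under STD scaling). The log2 change of mmu-miR-148b-3p was 0.64 (SE 0.42, edgeR adjusted p = 0.195) in AGO2 KO cells and -0.78 (SE 0.45, edgeR adjusted p = 0.144) in Cre cells. The Cre value passed as lower without naive Cre replicate A (-1.34, edgeR adjusted p = 0.0191) and was 0.57 without naive Cre B and C. Under STD scaling both passed as higher, at 1.82 in AGO2 KO (edgeR adjusted p = 0.00138) and 2.16 in Cre cells (edgeR adjusted p = 0.000498), a scaling which moved the median of all miRNAs to 1.66 in AGO2 KO and 3.30 in Cre cells, against 0.54 and 0.69 under TMM. mmu-miR-148a-3p made up 74.2% ± 6.79 of the 3p counts in AGO2 KO and 68.2% ± 1.12 in Cre Th2 libraries, with overlap through KO replicate E (65.2%), whereas the naive libraries, on 6 to 35 counts each, held mostly mmu-miR-148b-3p. The AGO2 KO effect in Th2 cells minus that in naive cells was -0.33 (SE 0.74, edgeR adjusted p = 0.914) for mmu-miR-148a-3p and 1.43 (SE 0.61, edgeR adjusted p = 0.117, unadjusted 0.0297) for mmu-miR-148b-3p. Thus 0 of 2 were called, where 12.2% of all miRNAs were (9 higher and 3 lower, against 8 and 12 with DESeq2 size factors and 1 and 36 under STD scaling). By edgeR 1 of the 2 had an unadjusted p under 0.05, and DESeq2 called 0. The value of mmu-miR-148b-3p was -0.41 without naive Cre B and C, -0.34 under STD scaling and 1.70 without naive Cre replicate A (edgeR adjusted p = 0.0447; over its 23 alternatives 0.0447 to 1).

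The AGO2 effect in Th2 cells was set against the AGO134 effect at day 7 in a fit of all 36 libraries. For mmu-miR-148a-3p the AGO2 effect minus the AGO134 effect was -0.99 on the log2 scale (SE 0.28, edgeR adjusted p = 0.00551). For mmu-miR-148b-3p it was -1.03 (SE 0.31, edgeR adjusted p = 0.00818; 0.0528 under library-size scaling, with a range of 0.000163 to 0.0528 over its 22 alternatives). These 2 of 5 tested members compare with 23.1% of 376 miRNAs called (38 higher and 49 lower, against 9 and 108 under STD scaling). mmu-miR-152-3p differed by -1.13 (SE 0.67, edgeR adjusted p = 0.242), mmu-miR-148a-5p by -0.72 (SE 0.68, edgeR adjusted p = 0.484) and mmu-miR-148b-5p by 0.23 (SE 1.88, edgeR adjusted p = 0.997). Under STD scaling both called differences were lower still (-2.10 and -2.13), with the median of all miRNAs at -0.98, against 0.05 under TMM. The sets differ in day of culture, controls, way of deletion and depth, and these cannot be told apart from the genotype.

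Other miRNAs known to restrain DNA methyltransferases or Bim were set beside the family. Of 9 miRNAs listed for DNA methyltransferases, such as the miR-29 members that act on Dnmt3a and Dnmt3b, 0 were called in naive AGO134 KO cells over WT. Of these 9, 1 was higher at day 7 (miR-21a-5p, log2 fold change 0.66, SE 0.13, edgeR adjusted p = 0.000998) and 1 was higher at day 14 (miR-342-3p, 0.54, SE 0.13, edgeR adjusted p = 0.004). The medians of this list were 0.18, -0.02 and 0.15, against -0.05, -0.02 and 0.01 for all miRNAs. Against the 18.3%, 14.4% and 19.6% of all miRNAs called at these stages, such counts are not above the background. Of 10 miRNAs listed for Bim, from the miR-17-92 clusters and the miR-181 and miR-24 families and with miR-32-5p, 3 were higher in naive KO cells, 2 at day 7 and 2 at day 14, and 0 were lower at any of these stages. Among them were miR-25-3p in naive cells (0.57, SE 0.13, edgeR adjusted p = 0.00329) and at day 7 (0.48, SE 0.13, edgeR adjusted p = 0.0149), and miR-181a-5p at day 14 (0.69, SE 0.19, edgeR adjusted p = 0.0081). The medians of the Bim list were 0.45, 0.23 and 0.18. Of all 382 miRNAs, 31, 33 and 34 were called higher at these stages. Whether the Bim list exceeds that background was not tested. In AGO2 KO Th2 cells 1 of 4 tested members of the first list was lower (miR-185-5p, -1.07, SE 0.26, edgeR adjusted p = 0.00175) and 2 of 5 of the second were higher (miR-92a-3p, 1.14, SE 0.36, and miR-181a-5p, 1.42, SE 0.49, edgeR adjusted p = 0.0131 and 0.0223), where 44.9% of all miRNAs were called.

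Over the 22 libraries of the AGO134 set, the miRNAs outside the family whose log2 levels ran most alike were found by Pearson's r among the 382 tested, as a description; the libraries share stages, genotypes and scaling. Most like mmu-miR-148a-3p were miR-182-5p (r = 0.967), miR-21a-3p (0.960) and miR-183-5p (0.954). Most like mmu-miR-148b-3p were miR-103-3p (0.953), miR-322-3p (0.933) and miR-501-3p (0.928). Most like mmu-miR-152-3p were miR-21c (0.941), miR-130a-3p (0.910) and miR-96-3p (0.907). Within the family r was 0.926 between mmu-miR-148a-3p and mmu-miR-148b-3p, 0.865 between mmu-miR-148a-3p and mmu-miR-152-3p and 0.737 between mmu-miR-148b-3p and mmu-miR-152-3p. Between the arms of one hairpin it was 0.903 for miR-148a and 0.691 for miR-148b. By mean level among the miRNAs with counts, mmu-miR-148a-3p ranked 85th, 40th and 44th in naive, day 7 and day 14 KO cells and 80th, 49th and 26th in WT cells.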

How the data were processed

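The deposited count files give whole-number read counts per miRNA entry for each of 36 libraries, with no normalisation by the authors; GRCm38 is the build that the submitters' processing notes name. The aligner, the counter and the handling of reads shared by near-identical miRNAs are not given in the sources used. The files hold 2119 entries. The 9 STD entries name no miRNA and were left out of library sizes and tests; of the 2110 others, 1 entry was kept per mature name, which gave 1966 names. Counts were filtered with filterByExpr (minimum count 10), TMM-normalised and tested with edgeR 4.0.16 in R 4.3.3 (quasi-likelihood test, Benjamini-Hochberg adjustment over all miRNAs tested, threshold 0.05), with 1 fit of 22 libraries, 1 of 14 and 1 of all 36 for the comparison between sets. The scripts were tested on simulated data. DESeq2 1.42.0, other scalings, no filter, all locus entries, smaller fits, a replicate block and leaving out each library were the alternatives. Arm ratios were log2 with 0.5 added to each count, for hairpins with at least 50 counts in every library. Levels are counts scaled by TMM to 1000000 per library (CPM) and SE is the log2 fold change divided by the root of F. Libraries of 1 group differed beyond sampling noise in all 48 pairs (lowest chi-square per degree of freedom 1.88). The text names the 6 members, the 3 miRNAs most like each guide by Pearson's r of log2 CPM (prior count 2), and of 2 target lists the called members with the lowest p. Members and lists were chosen with earlier results of these data known.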

Additional observations from a re-analysis of the deposited data

Results flagged for a closer look

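The effect of the AGO134 genotype on mmu-miR-148a-3p differed between stages by the test of the difference itself: the KO over WT log2 fold change at day 7 minus that in naive cells was 0.73 (edgeR adjusted p = 0.0324, edgeR or DESeq2 over 24 alternatives 0.0141 to 0.397), and that at day 14 minus that at day 7 was -1.04 (edgeR adjusted p = 0.000735, edgeR or DESeq2 over 22 alternatives 1.85e-06 to 0.214). For mmu-miR-152-3p the KO effect at day 14 minus that at day 7 was -2.45 (edgeR adjusted p = 0.000735). The AGO2 KO effect in Th2 cells minus the AGO134 KO effect at day 7 was -0.99 for mmu-miR-148a-3p and -1.03 for mmu-miR-148b-3p (edgeR adjusted p = 0.00551 and 0.00818), between sets that also differ in controls, day and depth. Groups of 4 libraries with a mean count of at least 10 were looked at for a library far from the others. Of these 17 groups of family values, 0 held one. Groups of 3 libraries, which include all day 14 and all Cre groups, were not looked at.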

How the results depend on the processing

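Values are log2 differences unless given as numbers of miRNAs called, and except where stated the cause of a move was not tested. Under STD scaling the calls for AGO134 KO over WT numbered 204 in naive (70 under TMM) and 129 in day 7 cells (55), and for KO at day 14 over day 7 113 (171). They numbered for the differences of KO effects 1 at day 7 minus naive (9), 15 at day 14 minus day 7 (46) and 12 at day 14 minus naive (26), and for AGO2 KO over Cre 5 in naive (9) and 69 in Th2 cells (44). They numbered for Cre Th2 over naive 84 (55) and for the difference of the AGO2 effects 37 (12). In the AGO134 set that scaling gave in naive cells mmu-miR-148a-3p -1.01, mmu-miR-148a-5p -1.52 and mmu-miR-148b-5p -0.34. At day 7 it gave mmu-miR-148a-3p -0.15, mmu-miR-148b-3p -0.56, mmu-miR-148b-5p -1.10 and mmu-miR-152-3p -0.25, and at day 14 mmu-miR-148b-5p -0.07 and in KO cells at day 14 over day 7 mmu-miR-148a-5p 0.72. The differences for mmu-miR-148a-3p were 0.85 (day 7 minus naive), -0.85 (day 14 minus day 7) and 0.01 (day 14 minus naive). In the AGO2 set it gave mmu-miR-148a-3p -2.26 in Th2 cells, and mmu-miR-148b-3p 1.82 in AGO2 KO and 2.16 in Cre cells over naive and -0.34 for the difference of effects. Between sets mmu-miR-148b-5p was -0.71 and mmu-miR-152-3p -2.23. By library size alone mmu-miR-148a-3p was -0.55 in naive and 0.17 in day 7 KO cells over WT, and mmu-miR-148b-3p was -0.25 at day 7. The difference at day 7 minus naive had 3 calls and 0.72 for mmu-miR-148a-3p, naive AGO2 KO cells had 14 calls and mmu-miR-148b-3p between sets was -1.04.

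DESeq2 gave 0.10 for mmu-miR-152-3p in naive cells, -0.78 for mmu-miR-148a-5p at day 14, 0.41 for mmu-miR-148b-3p in WT cells at day 14 over day 7. It gave -0.77 for mmu-miR-148a-3p in AGO2 KO Th2 cells, and 14 calls for the difference at day 7 minus naive. Its size factors within edgeR gave 0.41 for the same WT value, -0.78 for the same AGO2 value, -0.04 for mmu-miR-148b-5p at day 14 minus naive and 20 calls for the difference of the AGO2 effects. With no filter, where more miRNAs are tested, there were 35 calls at day 7 and 76 in AGO2 KO Th2 cells. It gave mmu-miR-148a-3p 0.38 and mmu-miR-148b-3p -0.04 at day 7, mmu-miR-148a-5p -0.76 at day 14 and 0.79 in KO cells at day 14 over day 7. It gave 0.68 for mmu-miR-148a-3p at day 7 minus naive. Fitting only the groups compared gave mmu-miR-148b-3p -0.02 at day 7 and 0.30 in WT cells at day 14 over day 7, mmu-miR-148a-5p 0.81 in KO cells at day 14 over day 7. It also gave 0.67 for mmu-miR-148a-3p at day 7 minus naive, 79 calls in AGO2 KO Th2 cells and 33 for AGO2 KO Th2 over naive (50). Counting all locus entries gave mmu-miR-148b-3p 0.46 in WT cells at day 14 over day 7, mmu-miR-148a-3p 0.30 in naive AGO2 KO cells with 31 calls. There were 71 calls in AGO2 KO Th2 cells and 36 for the difference of the AGO2 effects. Without naive Cre B and C there were 0 calls in naive AGO2 KO cells, with mmu-miR-148b-3p at -0.58, and 70 calls in AGO2 KO Th2 cells. It gave mmu-miR-148b-3p 0.57 in Cre cells over naive, and for the difference of effects 2 calls and -0.41.

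Same-numbered libraries did not clearly deviate together (correlations of -0.306 to 0.177, and not every pair of any 2 groups above 0.1). The labels do not state the animals, and weak correlations cannot settle whether the numbers pair the libraries. The main fits took them as unpaired. With the replicate block mmu-miR-148a-5p at day 14 was -0.70 (edgeR adjusted p = 0.0819) and the difference of the AGO2 effects had 3 calls.

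Leaving out 1 library at a time gave these ranges. For AGO134 KO over WT in naive cells there were 37 to 73 calls, with mmu-miR-148b-3p -0.56 to -0.31, mmu-miR-148b-5p -0.12 to 0.79 and mmu-miR-152-3p -0.77 to 0.40. At day 7 there were 24 to 59 calls, with mmu-miR-148a-3p 0.39 to 0.53, mmu-miR-148a-5p -0.32 to 0.05 and mmu-miR-148b-3p -0.02 to 0.11. At day 14 mmu-miR-148a-3p was -0.64 to -0.47 and mmu-miR-148a-5p -0.85 to -0.58. Over time mmu-miR-148b-3p was 0.24 to 0.35 in WT cells at day 14 over day 7, mmu-miR-148b-5p 0.96 to 1.66 in KO cells at day 7 over naive. In KO cells at day 14 over day 7 mmu-miR-148a-3p was -0.16 to 0.02 and mmu-miR-148a-5p 0.61 to 0.93. The difference at day 7 minus naive had 3 to 15 calls, with mmu-miR-148a-3p 0.54 to 0.81 and mmu-miR-152-3p -0.07 to 1.11. Day 14 minus day 7 had 30 to 51 calls, and day 14 minus naive gave mmu-miR-148a-5p -0.13 to 0.42 and mmu-miR-148b-5p -0.33 to 0.51. In the AGO2 set naive cells had 4 to 18 calls, with mmu-miR-148a-3p -0.38 to 1.14. Th2 cells gave mmu-miR-148a-3p -1.06 to -0.46 and mmu-miR-148b-3p -1.46 to -0.78. Cre cells over naive gave mmu-miR-148b-3p -1.34 to -0.42, and the difference of effects 2 to 18 calls with mmu-miR-148b-3p 0.79 to 1.73. Between sets mmu-miR-148b-5p ran from -4.09 to 4.88. Depth limits mmu-miR-152-5p and all naive values of the AGO2 set to a few counts.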
